A study of Arabidopsis thaliana with 8 samples.

Results

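The small RNA loci of pericentromeric heterochromatin were examined in phloem exudates of Arabidopsis thaliana. They are the loci of the deposited table that start inside a fixed window around each of the 5 centromeres. The windows run over 11.5-17.7 Mb of chromosome 1, 1.1-7.2 Mb of chromosome 2, 10.3-17.3 Mb of chromosome 3, 1.5-6.3 Mb of chromosome 4 and 9-16 Mb of chromosome 5. Of 19994 loci with a name of the type ath-b10r1 followed by a number, 6232 start in these windows. After 66 loci over a miRNA precursor and 8 loci listed by number were left out, 6158 pericentromeric loci remained, of 20347 loci in the whole table. The other 13532 ath-b10r1 loci without a precursor lie outside the windows and are called arm loci here.

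The exudates came from wild-type seedlings of the accession Columbia-0 (Col-0), without transgene or mutation. The −Fe group of 4 libraries was from plants that had 11 days on medium with iron and then 3 days without it, and the +Fe group of 4 libraries was from plants moved to fresh medium with iron for the same 3 days. Each library was made from the pooled exudate of many rosettes, collected from the cut hypocotyl with EDTA, so that a library is a mixture of plants and its source is largely free of cells. The comparison of −Fe with +Fe libraries addresses the response of exudate small RNA to iron supply.

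Pericentromeric heterochromatin is the compact chromatin beside the centromeres. In Arabidopsis it holds few genes and many transposons, whose remains are often annotated as pseudogenes. RNA polymerase IV transcribes such DNA, RNA-dependent RNA polymerase 2 makes the transcripts double-stranded, and Dicer-like 3 cuts them into short interfering RNAs (siRNAs) that guide DNA methylation. This pathway is called RNA-directed DNA methylation, and siRNAs of it can move between tissues through the phloem. The deposited table counts reads of any length per locus, so a count at one of these loci cannot be assigned to siRNAs, to other RNA or to broken transcripts.

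Averaged over their length, the windows had the gene content that their name implies. Loci just inside the window edges were close to those just outside, as given below. The annotation held 109 protein-coding genes and 121 pseudogenes per Mb inside the windows, against 273 and 12.1 per Mb outside them. Of the pericentromeric loci, 31.7% overlapped a protein-coding gene and 34.8% a pseudogene, against 69.0% and 5.63% of the arm loci. A further 38.8% of the pericentromeric loci and 22.9% of the arm loci overlapped no annotated gene. The pericentromeric loci were 20 to 119714 nt long with a median of 1138 nt, and the arm loci had a median of 875.5 nt.

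Total counts per library were between 10347644 and 14116739. The +Fe replicates 2 and 4 stood apart, with a count at 12117 and 11269 loci of the table, against 14214 to 16201 loci in the other 6 libraries. Loci over 9 of 9 mesophyll genes (the rubisco small subunit, light-harvesting proteins and rubisco activase) had counts and summed to 168-288 CPM in −Fe and 147-346 CPM in +Fe libraries, where CPM are the usual counts scaled to the library total. Loci were listed at only 3 of 8 phloem genes (SUC2, AHA3 and OPT3). They summed to 0-4.05 CPM in −Fe and 0.0966-1.42 CPM in +Fe libraries, and SEOR1, SEOA, PP2-A1, NAKR1 and APL had no locus in the table. Genes without a listed locus could not be counted, and small RNA counts need not follow the levels of mRNA. These counts therefore cannot tell whether the exudates were phloem.

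With the rRNA gene locus ath-b10r1-9031 left out, the pericentromeric counts were spread over many loci. The pericentromeric loci held 4818156 of 96628856 counts, and 404 loci were needed to reach 50% of that sum, against 4 loci for the arms. The highest locus held 4.63% of the pericentromeric counts, the 10 highest 12.6% and the 100 highest 28.4%, whereas in the arms these shares were 20.9%, 70.5% and 87.1%. This contrast follows in part from the selection. The omitted ath-b10r1-9031 alone has 23204175 counts, while the arms keep their loci over tRNA, rRNA, snRNA, snoRNA and miRNA genes. Arm loci held a mean of 46.8% of library counts in −Fe and 46.2% in +Fe. Without loci over those genes they held 8.24% and 9.17%. At the lower end, 450 pericentromeric loci had no count in any library, 310 had 1 or more but under 10 counts and 1488 had 10 or more but under 100 counts over the 8 libraries. The largest class was from 100 to under 1000 counts, with 2710 loci (44.0%). A further 1169 loci from 1000 to under 10000 counts held 57.1% of the pericentromeric counts, and 31 loci with 10000 counts or more held 18.8%.

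The 8 loci that the selection leaves out are far from negligible, since they hold 24009637 counts. ath-b10r1-9031, which covers an rRNA gene cluster of chromosome 3, has 23204175 of them. ath-b10r1-9024, ath-b10r1-9351 and ath-b10r1-12397 are 3 more highly counted loci. In CPM, every −Fe library lay above every +Fe library at ath-b10r1-4445 and ath-b10r1-4662 and below at ath-b10r1-8596 and ath-b10r1-9351. ath-b10r1-4445 and ath-b10r1-4662 were also called higher and ath-b10r1-8596 and ath-b10r1-9108 lower in −Fe by DESeq2, so the counts of differing loci given here lack 5 loci of the windows that met one of these criteria.

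With the 5 chromosomes joined, loci covered more of the DNA in the middle of the windows and were lower in level there than at the ends. When each window was divided into 10 equal parts and the 5 chromosomes were joined, loci covered 43.4% and 39.0% of the outermost parts and 89.3%, 75.6%, 77.0% and 76.2% of parts 4 to 7. Loci were fewer there, with 156, 160, 173 and 157 per Mb, against 239 and 237 per Mb in the outermost parts. The median length was 1764, 1542, 1130 and 1496 nt in parts 4 to 7, against 965.5 and 976 nt at the ends. Part 6 was thus close to part 2 (1127 nt) and below part 3 (1330 nt). Single chromosomes departed from the joined course of the covered length. On chromosome 1, part 6 was covered to 35.0%, below part 10 (38.3%). On chromosome 4, part 1 was covered to 77.6% and part 5 to 77.1%, and the lowest value was in part 3 (49.2%).

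With the chromosomes joined, annotation also changed from the ends to the middle. Pseudogenes were the assigned feature of 11.2% and 12.2% of the loci in the outermost parts and of 43.2%, 46.5%, 33.5% and 47.6% in parts 4 to 7. For protein-coding genes the shares were 42.5% and 45.2% at the ends and 23.6%, 13.8%, 16.6% and 21.1% in those 4 central parts. The median level per length, over loci with at least 10 counts, was 2.38 and 2.67 CPM per kb at the ends and 0.935, 0.679, 0.763 and 0.926 CPM per kb in the central parts. The summed counts did not follow this order, since each of the 10 held between 6.38% and 12.3% of the pericentromeric counts. These values describe position and no test was made of them.

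**Figure D1:**
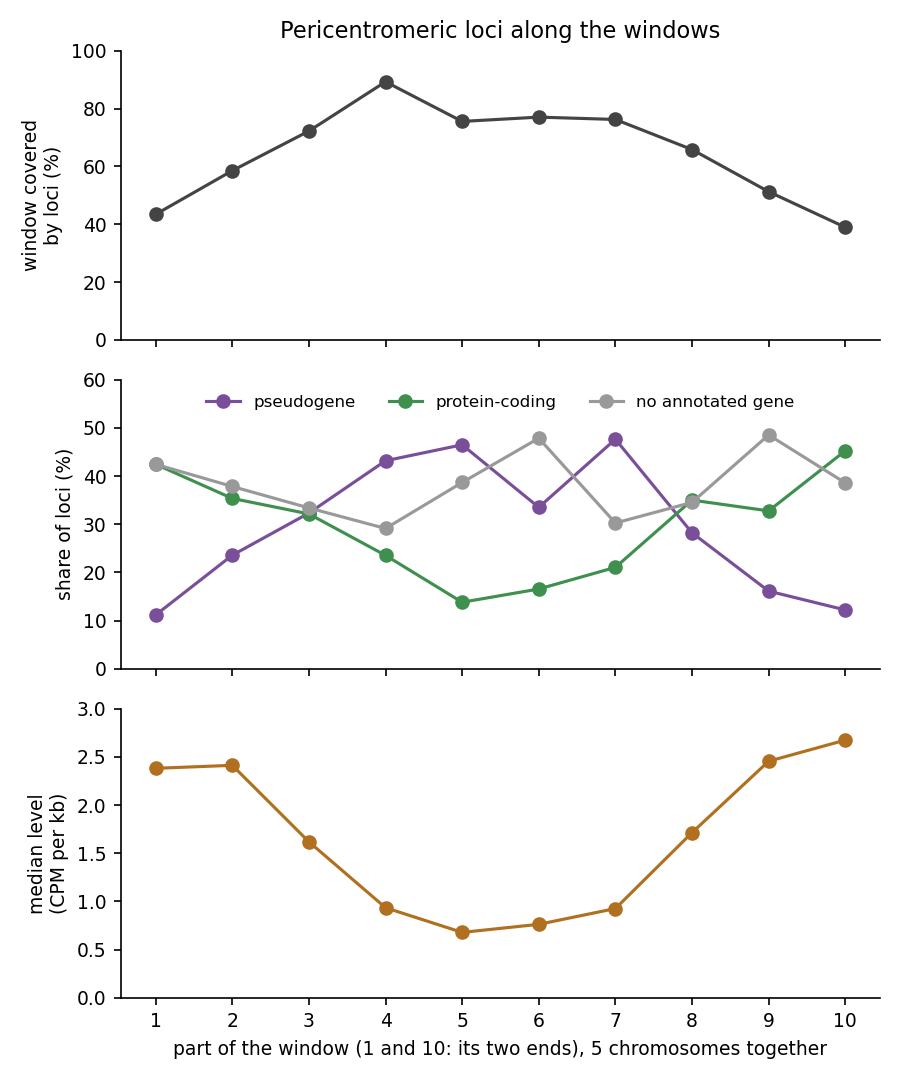
Pericentromeric loci in 10 equal parts of the window, with the 5 chromosomes joined and each locus placed by its start. The panels show the length covered by loci in % of the window, the share of loci assigned to each annotation in %, and the median level in CPM per kb over loci with at least 10 counts. Covered length peaks at 89.3% in part 4, and the level is lowest, at 0.679 CPM per kb, in part 5.

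The outer edge of a window did not mark a step. The 20 loci nearest to each of the 10 edges had a median of 211 counts inside and 284 counts outside, and a median length of 917.5 and 993.5 nt. A count in all 8 libraries was found for 53.5% of the loci just inside and 54.5% of those just outside, and 51.5% and 48% overlapped a protein-coding gene.

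Most pericentromeric loci were counted in every library. A count was present in all 8 libraries at 3348 of the 6158 loci (54.4%), and these loci held 96.1% of the pericentromeric counts. Of the arm loci 36.4% were counted in all 8 libraries. Loci counted in 1 to 7 libraries numbered 246, 224, 255, 288, 300, 445 and 602 in ascending order of the number of libraries. Longer loci were counted in all libraries more often, with 28.9% in the shortest length quartile (20 to 610 nt), 40.9% and 58.0% in the next quartiles and 89.7% in the longest.

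**Figure D2:**
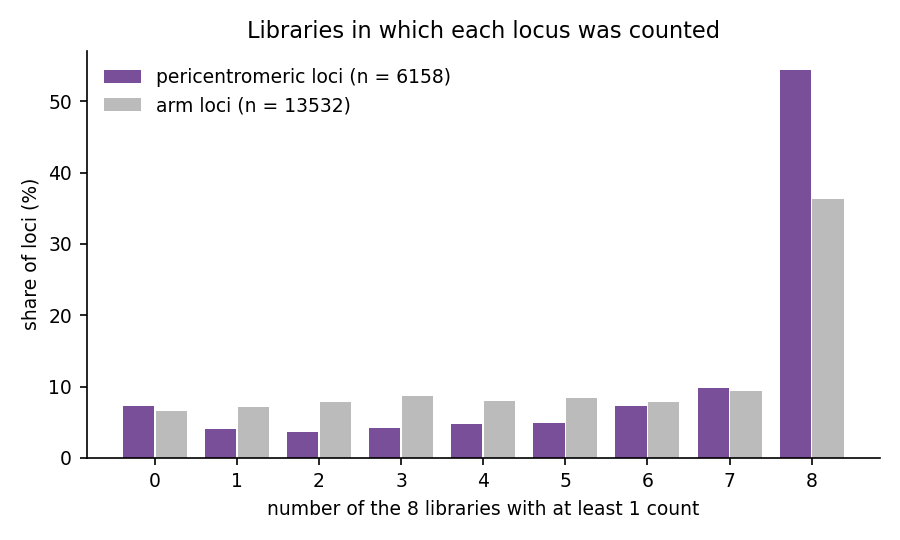
Share of loci in % against the number of libraries with at least 1 count, for 6158 pericentromeric loci and 13532 arm loci. The bars at 8 libraries stand at 54.4% and 36.4%, and the arm loci are spread more evenly over 1 to 7 libraries.

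Pericentromeric loci were counted in a larger share than arm loci in each of the 8 libraries. The share with a count was 76.5%, 81.9%, 84.8% and 77.3% for the pericentromeric loci and 66.9%, 74.5%, 77.4% and 66.7% for the arm loci in −Fe replicates 1 to 4. The +Fe replicates 1 to 4 had 78.5%, 68.8%, 79.6% and 66.1% at the pericentromeric loci and 68.7%, 55.0%, 66.1% and 50.3% for the arm loci. The mean difference within libraries was 11.0 percentage points, higher in 8 of 8 libraries (exact two-sided sign-flip permutation test, p = 0.0078, the smallest that 8 libraries can give). The same loci were counted in every library. The p of this test, here and below, therefore covers the spread over libraries and not that over loci.

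The direction of this difference depended on which loci were compared. Among loci without an annotated gene, 73.9% ± 6.54 of the pericentromeric and 81.8% ± 6.10 of the arm loci had a count (SD, n = 8), a difference of −7.89 points (p = 0.0078, same exact test). Among loci of 200 to 1000 nt the shares were 62.5% ± 8.28 and 61.2% ± 8.96, a difference of 1.30 points (p = 0.0156, same exact test). The difference over all loci thus changed with the length and the gene content of the loci compared.

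**Figure D3:**
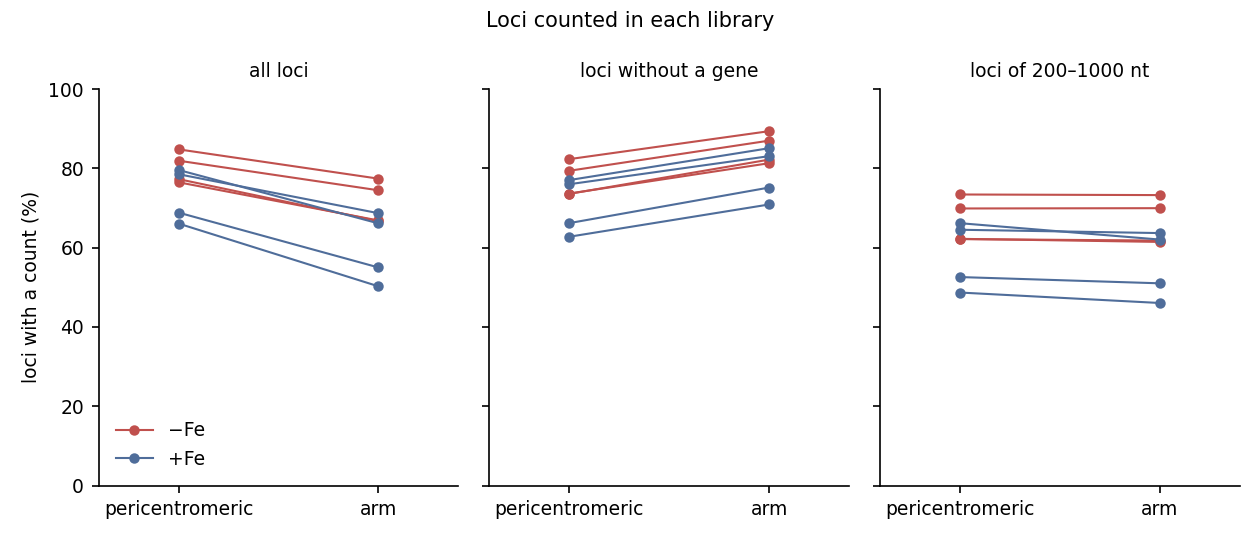
Share of loci with at least 1 count, in %, for pericentromeric loci (left) and arm loci (right) of each library, joined by a line and coloured by condition. The mean pericentromeric value minus the arm value is 11.0 points for all loci, −7.89 points for loci without a gene and 1.30 points for loci of 200 to 1000 nt.

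The median level per length of the tested loci did not differ between the sets beyond the spread over libraries. It averaged 1.43 ± 0.258 CPM per kb for 5398 pericentromeric loci and 1.22 ± 0.533 CPM per kb for 11805 arm loci (SD, n = 8), a mean log2 ratio of 0.48 (exact two-sided sign-flip permutation test, p = 0.195). Without +Fe replicate 4, where the arm median was 0.142 CPM per kb, the mean log2 ratio was 0.12 (p = 0.391, same exact test). Among loci without a gene the pericentromeric loci were lower in 8 of 8 libraries, at 2.32 ± 0.467 against 4.26 ± 0.746 CPM per kb, a log2 ratio of −0.89 (p = 0.0078, same exact test). With a minimum of 50 counts in place of 10 the log2 ratio was −0.47 (p = 0.0078, same exact test).

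The libraries ranked the pericentromeric loci alike. The median Spearman correlation between 2 libraries, across 5398 loci and 28 pairs of libraries, was 0.85 (range 0.75 to 0.90). Across 11805 arm loci it was 0.74 (0.70 to 0.81). For the pericentromeric loci the median was 0.88 among −Fe libraries, 0.80 among +Fe libraries and 0.84 between the conditions. Loci are not independent replicates, and both sets share library depth and locus length, so these values are descriptions.

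The share of a library taken by pericentromeric loci did not differ between conditions beyond the spread of the replicates. It was 4.45%, 5.50%, 4.77% and 3.87% in −Fe replicates 1 to 4, against 4.34%, 5.59%, 5.62% and 6.01% in +Fe replicates 1 to 4. The groups overlapped, with −Fe replicate 2 among the +Fe values and +Fe replicate 1 among the −Fe values. The means were 4.65% ± 0.678 in −Fe and 5.39% ± 0.725 in +Fe (SD, n = 4 each), a difference of −0.74 points in % of the library (p = 0.2 by an exact two-sided permutation test, where 0.0286 is the smallest possible). It was −0.48 points without −Fe replicate 4 (p = 0.4, same exact test) and −0.33 points without +Fe replicates 2 and 4 (p = 0.667, same exact test). It was −1.09 points without +Fe replicate 1 (p = 0.0571, same exact test) and −1.03 points without −Fe replicate 2 (p = 0.171, same exact test). In bulk samples like these, RNA given off by fewer cells of a type and less RNA from each cell cannot be told apart.

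The 5 chromosomes gave the same order of the means. The −Fe and +Fe means were 0.8295% ± 0.123 and 0.970% ± 0.147 for chromosome 1, 0.946% ± 0.146 and 1.11% ± 0.143 for chromosome 2, and 1.23% ± 0.182 and 1.41% ± 0.189 for chromosome 3. They were 0.746% ± 0.0741 and 0.832% ± 0.104 for chromosome 4 and 0.893% ± 0.162 and 1.07% ± 0.152 for chromosome 5 (SD, n = 4 each). The exact permutation p was between 0.143 and 0.286, and 0.286 for each chromosome after Benjamini-Hochberg adjustment over the 5. The chromosomes share their libraries and are not independent of each other.

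**Figure D4:**
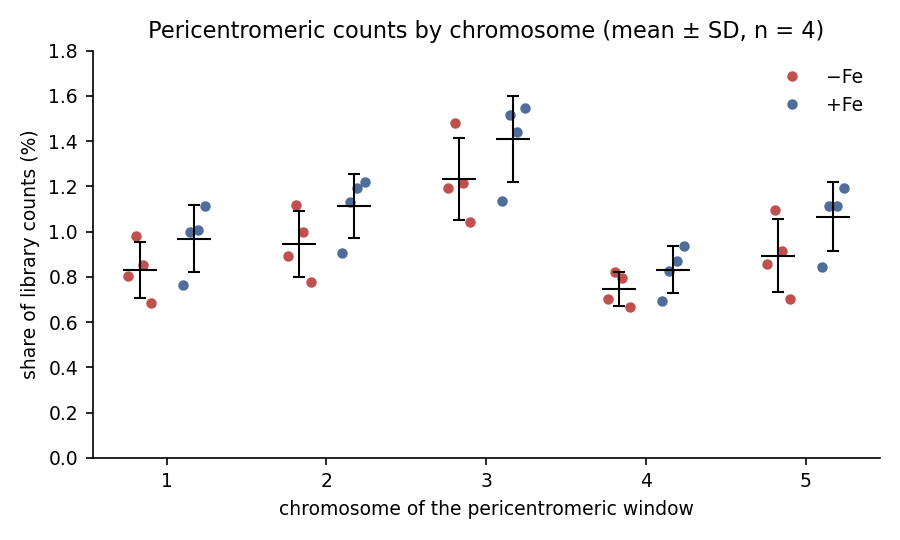
Share of library counts, in %, at the pericentromeric loci of each chromosome, with −Fe libraries left and +Fe libraries right. Points are libraries, and bars give the mean ± SD of 4. Mean shares run from 0.746% (−Fe, chromosome 4) to 1.41% (+Fe, chromosome 3), and the conditions overlap on every chromosome.

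Counts relative to the arms did not pass the test between conditions either. With loci over tRNA, rRNA, snRNA, snoRNA and miRNA genes left out of both sums, the log2 ratio of pericentromeric to arm counts was −0.87 ± 0.11 in −Fe and −0.81 ± 0.06 in +Fe (SD, n = 4 each), a difference of −0.05 (exact two-sided permutation test, p = 0.486). With the ratio taken from the median log2 CPM in place of the sums, the difference was −0.55 (p = 0.0857, same exact test). Per length, the median pericentromeric level was 1.47 ± 0.271 CPM per kb in −Fe and 1.39 ± 0.277 CPM per kb in +Fe (SD, n = 4 each, p = 0.657, exact permutation test). The median arm level was 1.49 ± 0.275 CPM per kb in −Fe and 0.959 ± 0.632 CPM per kb in +Fe (p = 0.229, same exact test). It was lowest in +Fe replicates 2 and 4, at 0.786 and 0.142 CPM per kb.

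The number of pericentromeric loci with a count was 4710, 5045, 5221 and 4759 in −Fe replicates 1 to 4. In +Fe replicates 1 to 4 it was 4835, 4239, 4901 and 4069, and the +Fe replicates 2 and 4 were the lowest of all libraries. The means were 4934 ± 242 in −Fe and 4511 ± 419 in +Fe (SD, n = 4 each), a difference of 423 loci (exact two-sided permutation test, p = 0.171). Thinning every library to the smallest total gave an expected 4911 ± 242 in −Fe and 4490 ± 398 in +Fe loci (p = 0.171, same exact test). The difference was 275 loci without +Fe replicate 4 (p = 0.343, same exact test) and 65.8 loci without +Fe replicates 2 and 4 (p = 0.8, same exact test).

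No single pericentromeric locus passed the test between conditions. edgeR's quasi-likelihood test, with Benjamini-Hochberg adjustment over 17722 loci with at least 10 counts, called 0 loci (0%) when an adjusted p under 0.1 was asked for together with a change of 0.5 or more on the log2 scale, and the smallest adjusted p was 0.645. Counts were also simulated with the same dispersion at every locus, set to the common dispersion of these data, 1.11. There the same test called 0 of 200 loci changed 4-fold, so it could miss such changes at loci that vary this much. At a dispersion of 0.05 it called 200 of 200. Single loci need not have the common dispersion, so these runs do not give the power at a given locus. Of the 6158 pericentromeric loci 5398 were tested. At an unadjusted p under 0.05, 136 of them (2.52%) were higher in −Fe, against 4.86% of all loci tested, and 89 (1.65%) were lower, against 1.83%. This balance depended on the scaling, with 94 higher and 165 lower by library totals, and on the tool, with 150 higher and 148 lower by DESeq2. The number higher was 76 without −Fe replicate 3, and the number lower was 48 without −Fe replicate 1 and 58 without −Fe replicate 4.

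The separation of the libraries was counted in CPM by library totals, and both directions were near the shares of all loci tested. This scaling also gave more loci lower than higher at an unadjusted p under 0.05. Every −Fe library lay above every +Fe library in CPM at 67 pericentromeric loci (1.24%), against 1.64% of all loci tested. Every −Fe library lay below every +Fe library at 93 loci (1.72%), against 1.32% of all loci. DESeq2 called 34 of the 17722 loci at the same thresholds (0.192%), of which 3 were pericentromeric, with 1 higher in −Fe (0.141% of all loci were called higher) and 2 lower (0.0508% of all loci were called lower). It gave no adjusted p at some of the 17722 loci, ath-b10r1-9620 among them, and these count as not called.

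The median log2 fold change of −Fe over +Fe was 0.00 for the tested pericentromeric loci, with quartiles at −0.38 and 0.51, and 0.07 for all loci tested. It moved with the level of the loci. The median was 0.49 for 1488 pericentromeric loci with 10 or more but under 100 counts, −0.03 for 2710 loci from 100 to under 1000 counts and −0.08 for 1200 loci of 1000 counts or more. Arm loci in the same classes had medians of 0.82, 0.00 and −0.08. With library totals in place of TMM scaling the median of all loci was −0.12 and that of the pericentromeric loci −0.20, and the share of pericentromeric loci above 0 was 37.9% in place of 50.2%.

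None of the loci with the most counts passed the edgeR test between conditions. On chromosome 1 the highest locus was ath-b10r1-17457 (chr1:14190100-14233658), a locus of 43559 nt over 9 annotated genes, assigned to pseudogenes. It had 696, 568, 580 and 844 CPM in −Fe replicates 1 to 4, against 649, 649, 573 and 869 CPM in +Fe replicates 1 to 4. The ranges were nearly the same, and the log2 fold change was 0.23 (edgeR adjusted p = 0.998).

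On chromosome 2 the highest locus was ath-b10r1-4715 (chr2:7190415-7194551), which overlaps the protein-coding gene AT2G16586. It averaged 318 ± 73.9 CPM in −Fe and 325 ± 57.1 CPM in +Fe libraries (SD, n = 4 each). ath-b10r1-4236 (chr2:5052087-5052711), without an annotated gene, averaged 243 ± 35.3 CPM in −Fe and 309 ± 54.8 CPM in +Fe libraries. ath-b10r1-3885 (chr2:2590503-2611122) overlaps 6 annotated genes, of which VPS2.1 encodes a subunit of the ESCRT-III complex of membrane sorting. It averaged 234 ± 35.5 CPM in −Fe and 295 ± 56.5 CPM in +Fe libraries. At each of these 3 loci the conditions overlapped.

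On chromosome 3 the highest locus, ath-b10r1-9032 (chr3:14203295-14203406), is only 112 nt long and lies 72 nt past the end of the omitted rRNA gene locus. It had 2782, 3198, 1462 and 1678 CPM in −Fe replicates 1 to 4, against 2177, 3369, 1954 and 2098 CPM in +Fe replicates 1 to 4. Replicate 2 was the highest library in both conditions, and the ranges overlapped. ath-b10r1-9033 (chr3:14203471-14203558), its neighbour, averaged 198 ± 10.7 CPM in −Fe and 227 ± 82.4 CPM in +Fe libraries. Both overlap AT3G06365, annotated as an RNA gene of no named class, which the omitted rRNA gene locus ath-b10r1-9031 also overlaps. The 32 pericentromeric loci within 20 kb of the rRNA gene locus held 6.26% of the pericentromeric counts, of which 74.0% were at ath-b10r1-9032. Without them and the chromosome 2 block described below, the difference in share between −Fe and +Fe was −0.73 points (p = 0.171, exact permutation test).

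On chromosome 4 ath-b10r1-757 (chr4:3054302-3055897), without an annotated gene, held 18.7% of the pericentromeric counts of the chromosome. It had 1486, 1168, 1665 and 1710 CPM in −Fe replicates 1 to 4, against 1333, 1403, 1374 and 1629 CPM in +Fe replicates 1 to 4. The −Fe values spanned the +Fe values, and the log2 fold change was 0.32 (edgeR adjusted p = 0.89).

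On chromosome 5 the highest locus, ath-b10r1-12394 (chr5:11183755-11185622) over the pseudogene AT5G29550, was the lowest of the 5 chromosome leaders. It averaged 310 ± 22.7 CPM in −Fe and 319 ± 42.5 CPM in +Fe libraries (SD, n = 4 each), and the conditions overlapped. ath-b10r1-17833 (chr1:16430375-16434435) and ath-b10r1-9225 (chr3:15618253-15644218) complete the 10 highest, with 228 ± 43.8 and 202 ± 23.1 CPM in −Fe, against 224 ± 14.1 and 228 ± 44.0 CPM in +Fe libraries.

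The 3 loci with the least variation over the 8 libraries were ath-b10r1-12394, ath-b10r1-761 (chr4:3061050-3087446) and ath-b10r1-16889 (chr1:11502984-11513009). ath-b10r1-12394 had a coefficient of variation of 10.2%. ath-b10r1-761 averaged 185 ± 13.7 CPM in −Fe and 184 ± 10.3 CPM in +Fe libraries, and its coefficient of variation was 6.10%. ath-b10r1-16889, a lower locus, averaged 23.6 ± 1.49 CPM in −Fe and 22.9 ± 3.04 CPM in +Fe libraries, with 9.66%. Over 3950 pericentromeric loci with a mean of at least 1 CPM the median coefficient of variation was 51.6%, with quartiles at 34.7% and 74.6%.

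The longest loci each spanned many annotated genes. ath-b10r1-796 (chr4:3371967-3491680), the longest of the table at 119714 nt, overlaps 25 annotated genes and was assigned to pseudogenes. It averaged 67.9 ± 8.02 CPM in −Fe and 66.3 ± 27.4 CPM in +Fe libraries (SD, n = 4 each). ath-b10r1-3914 (chr2:2764840-2841702) is 76863 nt long and overlaps XTH4, a gene for an enzyme that remodels cell wall xyloglucan. It had 55.0 ± 18.3 CPM in −Fe and 50.8 ± 8.9964 CPM in +Fe libraries. ath-b10r1-17776 (chr1:16045648-16115053), of 69406 nt, had 36.0 ± 1.397 CPM in −Fe and 37.1 ± 7.35 CPM in +Fe libraries.

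The 5 tested loci with the smallest unadjusted p among those higher in −Fe had adjusted p values of 0.645 each (edgeR). The p of the same contrast chose them, and their values are therefore a description. ath-b10r1-8878 (chr3:13592287-13595293), without an annotated gene, had 71.9, 42.2, 134 and 182 CPM in −Fe replicates 1 to 4, against 60.7, 36.0, 79.3 and 68.2 CPM in +Fe replicates 1 to 4. ath-b10r1-8908 (chr3:13713984-13715249), also without a gene, had 68.6, 35.5, 116 and 175 CPM in −Fe replicates 1 to 4, against 49.8, 31.2, 70.8 and 70.04 CPM in +Fe replicates 1 to 4. At both loci −Fe replicates 3 and 4 were above all +Fe libraries, while −Fe replicate 2 was below 3 of them.

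ath-b10r1-9238 (chr3:15680265-15683832), over a pseudogene, had 3.78, 4.58, 11.8 and 15.9 CPM in −Fe replicates 1 to 4, against 3.47, 1.06, 5.07 and 2.30 CPM in +Fe replicates 1 to 4. Its −Fe replicates 3 and 4 were again the highest. ath-b10r1-17327 (chr1:13404825-13407562), over the pseudogene AT1G35980, had 10, 13, 25 and 11 counts in −Fe replicates 1 to 4, against 0 counts in each +Fe library. ath-b10r1-4520 (chr2:6406612-6407149), in the protein-coding gene AT2G14910, had 0, 14, 14 and 40 counts in −Fe replicates 1 to 4, against 0 in each +Fe library. A count of 0 allows up to 3 counts per library. Against this limit the observed mean −Fe level was 4.85-fold higher at ath-b10r1-17327 and 5.26-fold higher at ath-b10r1-4520. Without −Fe replicate 4, the value for ath-b10r1-4520 was 3.01-fold. These values allow for counting error at the counts of 0 only, and the error of the −Fe mean is not in them. PCR copies were not marked with molecular identifiers, and reads are not independent molecules.

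The 5 loci with the smallest unadjusted p among those lower in −Fe also had an adjusted p of 0.645 each (edgeR). ath-b10r1-9212 (chr3:15524175-15531095), over pseudogenes, had 3.97, 4.18, 4.13 and 2.73 CPM in −Fe replicates 1 to 4, against 6.23, 16.6, 9.76 and 18.1 CPM in +Fe replicates 1 to 4. All −Fe values were below all +Fe values, with a log2 fold change of −1.52. It was 1 of the 3 pericentromeric loci that DESeq2 called, at a log2 fold change of −1.53 and an adjusted p of 0.054.

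ath-b10r1-3616 (chr2:1430962-1432095), without a gene, was also called lower by DESeq2, with an adjusted p of 0.0513. Its counts were 0, 0, 5 and 2 in −Fe replicates 1 to 4, against 32, 92, 3 and 86 in +Fe replicates 1 to 4. The groups overlapped through +Fe replicate 3, and +Fe replicates 2 and 4 were the highest. The locus that DESeq2 called higher was ath-b10r1-4392 (chr2:5924307-5924703), named after its values were seen, with 18, 67, 25 and 33 counts in −Fe replicates 1 to 4, against 4, 1, 5 and 1 counts in +Fe replicates 1 to 4. Its DESeq2 log2 fold change was 3.87 and its adjusted p 0.0669.

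The remaining loci of this group were counted in every library. ath-b10r1-1012 (chr4:4910267-4926857), over pseudogenes, had 13.2, 9.15, 7.76 and 5.55 CPM in −Fe replicates 1 to 4, against 21.9, 29.2, 19.4 and 12.3 CPM in +Fe replicates 1 to 4. ath-b10r1-12315 (chr5:10546188-10547467), without a gene, averaged 14.4 ± 3.78 CPM in −Fe and 32.5 ± 21.6 CPM in +Fe libraries, and ath-b10r1-8540 (chr3:11451447-11453541), over the protein-coding gene AT3G29633, averaged 3.95 ± 1.83 CPM in −Fe and 12.0 ± 7.65 CPM in +Fe libraries (SD, n = 4 each). Only at ath-b10r1-8540 did the conditions not overlap among these 3 loci, and its highest value was in +Fe replicate 4.

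**Figure D5:**
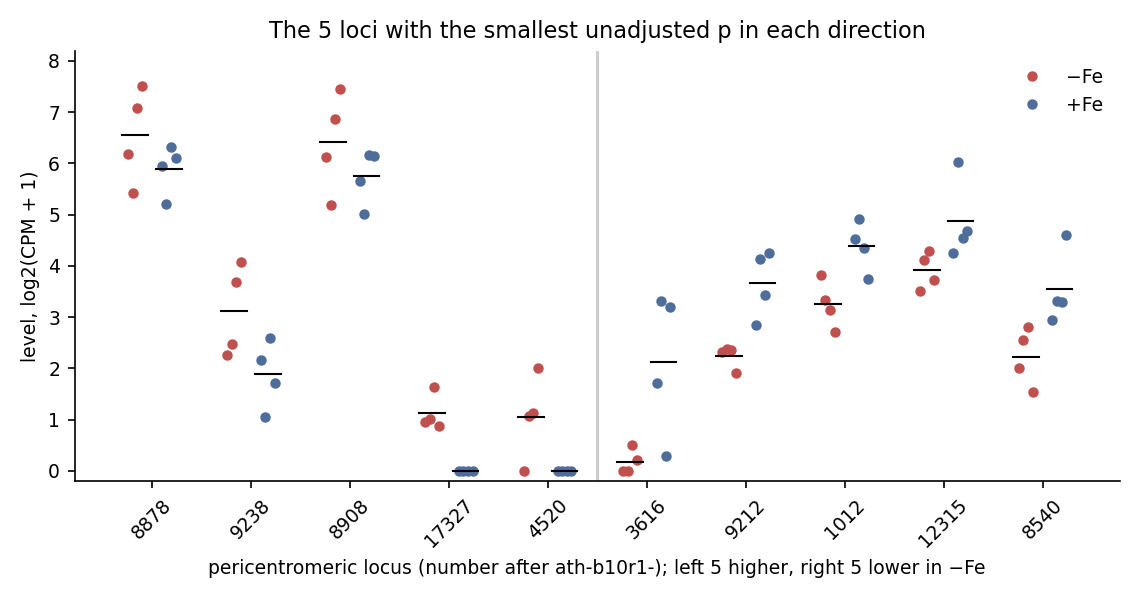
Level of the 10 loci with the smallest unadjusted p, 5 higher and 5 lower in −Fe, as log2(CPM + 1), with −Fe libraries left and +Fe libraries right. Points are libraries, and lines give the mean of 4. ath-b10r1-17327 has no count in the +Fe libraries, and ath-b10r1-9212 and ath-b10r1-8540 show no overlap of the conditions.

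Some loci were counted in 1 condition alone. At 14 pericentromeric loci each of the 4 −Fe libraries had a count and the +Fe libraries had none (0.259% of those tested), against 0.361% of all loci tested. They had 13 to 59 counts in all, with a median of 36, and 5 were assigned to protein-coding genes, 4 to pseudogenes and 5 to no gene. The highest of them was ath-b10r1-17327. The reverse pattern was found at 1 locus, against 0.0169% of all loci tested. It was ath-b10r1-17640 (chr1:15154286-15155714), over the pseudogenes AT1G40107 and AT1G40109, named after its values were seen, with 0 counts in each −Fe library and 7, 7, 4 and 1 counts in +Fe replicates 1 to 4.

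Single libraries held most of the counts of some loci. Of 4563 pericentromeric loci with at least 50 counts, 208 had more than 50% of them in 1 library and 11 more than 90%. The library was +Fe replicate 4 for 84 of the 208 loci and +Fe replicate 2 for 52, against 3 to 15 loci for each −Fe library and 10 and 29 loci for +Fe replicates 1 and 3. The libraries with the fewest loci counted were thus those with the most loci of this kind.

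Among loci counted in all libraries of a condition, the largest such shares were 74.0% at ath-b10r1-9620 in +Fe replicate 2 and 72.7% at ath-b10r1-17155 in +Fe replicate 4. At ath-b10r1-1181, in ARGAH1, a gene for the arginine-cleaving enzyme arginase, +Fe replicate 3 held 72.7% of 33 counts. At ath-b10r1-8838 and ath-b10r1-12164 +Fe replicate 4 held 71.6% and 70.5%. Leaving the library out turned the sign of the log2 fold change at ath-b10r1-9620, ath-b10r1-8838 and ath-b10r1-12164.

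By annotation, 1927 pericentromeric loci assigned to protein-coding genes held 36.8% of the pericentromeric counts, 2387 without a gene 28.7%, and 1677 assigned to pseudogenes 23.8%. Per length the order of the medians was 1.91 CPM per kb without a gene, 1.38 CPM per kb at protein-coding genes and 0.718 CPM per kb at pseudogenes, over all loci of each class. The mean share of library counts at pseudogenes was 1.10% ± 0.143 in −Fe and 1.29% ± 0.211 in +Fe libraries. Without a gene it was 1.33% ± 0.173 in −Fe and 1.56% ± 0.202 in +Fe, and at protein-coding genes 1.71% ± 0.288 in −Fe and 1.99% ± 0.295 in +Fe (SD, n = 4 each).

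At an unadjusted p under 0.05, 23 of 1442 tested loci over pseudogenes (1.60%) and 66 of 1781 over protein-coding genes (3.71%) were higher in −Fe, both below the 4.86% of all loci tested. Lower in −Fe were 20 (1.39%) and 27 (1.52%), against 1.83% of all loci tested. Loci over tRNA genes numbered 42, of which 31 were tested, and none had an unadjusted p under 0.05 in either direction.

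The chromosome 2 window contains a copy of mitochondrial DNA, known as a large insertion near the centromere of this chromosome. The 52 pericentromeric loci of this block held 2.22% of the pericentromeric counts, and their share of library counts was 0.107% ± 0.0102 in −Fe and 0.115% ± 0.00919 in +Fe libraries (SD, n = 4 each). Reads of mitochondrial RNA can match this copy, and the counts do not separate them from RNA of the nuclear copy.

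Some loci had closely similar counts in every library. Among loci of at least 1000 counts, 31 pairs had counts within 15% of each other in every library, involving 56 pericentromeric loci, and 21 of these pairs were on different chromosomes. The counts of ath-b10r1-9032 were within 0.967% of those of the omitted locus ath-b10r1-9024, which lies 10410 nt away on the other side of the rRNA genes. As an example chosen after its values were seen, ath-b10r1-8494 and ath-b10r1-8522 on chromosome 3, with 3479 and 3504 counts, differed by at most 10.9% in a library. At lower counts, 10 groups with 21 loci had identical counts in all 8 libraries. Sequences were not compared, and loci of unlike length occur among the pairs, so that similar counts do not show copies. Where reads match several copies of a repeat, the level of each copy is uncertain.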

How the data were processed

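Adapters were trimmed by the authors (cutadapt, reads of any length kept), and ShortStack gave the alignment and the deposited raw counts per locus. The submitters' processing notes name TAIR10. How reads with several matches were placed is not given in the sources used here. Counts were scaled to CPM by library totals, and edgeR 4.0.16 (limma 3.58.1, R 4.3.3) fitted the condition to 17722 loci with at least 10 counts, with TMM factors of 0.743 to 1.17. DESeq2 1.42.0 was an alternative. The edgeR fit was tested on simulated data with 200 changed loci. At a dispersion of 1.11 it recovered 0 of them at a 4-fold and 184 at a 64-fold change. At a dispersion of 0.05 it recovered 200 at either change. 4 against 4 libraries were compared by exact two-sided permutation over 70 choices. Features come from the RefSeq TAIR10.1 gene table, by overlap of at least 1 nt without strand, with tRNA first, then rRNA, miRNA, snRNA or snoRNA, protein-coding gene, pseudogene and other RNA. A count of 0 allows 3 counts, or 0.213 to 0.290 CPM. The deposited sum over libraries was not used, and 0 library columns were left out.

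Named loci are the 10 highest, the highest per chromosome, the 5 with the smallest unadjusted p in each direction, the 3 longest, the 3 with the smallest coefficient of variation, and 5 with the largest share in 1 library. The windows, lists and rules were chosen with earlier results of these data known. The replicates are separate biological samples in the labels. Alternatives were another tool, scaling, filter, threshold, detection limit, window, length class and locus set, a replicate block, and leaving out libraries; recounting with the loci left out by number and without the rRNA-flanking and mitochondrial loci were chosen after seeing the data.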

Additional observations from a re-analysis of the deposited data

Results flagged for a closer look

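In 10 of 78 groups of 4 libraries, formed by the named pericentromeric loci and the summed measures of each condition, 1 library lay far from the other 3 by Dixon's gap test, where chance marks about 1 in 20 groups. The loci chosen for a large share of counts in 1 library had to show this: ath-b10r1-9620 reached 3.58 CPM in +Fe replicate 2, where the other +Fe libraries had 0 to 0.354 CPM. In +Fe replicate 4, ath-b10r1-17155 reached 6.89 CPM, ath-b10r1-8838 9.19 CPM and ath-b10r1-12164 7.08 CPM, where no other +Fe library was above 0.676 CPM. ath-b10r1-1181 reached 1.79 CPM in +Fe replicate 3 and had no count in the other +Fe libraries.

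Of the other loci, +Fe replicate 2 was the highest of its group at ath-b10r1-9032, the locus beside the rRNA genes, with 3369 CPM (the others 1954 to 2177 CPM), and at ath-b10r1-12315, with 64.7 CPM (18.1 to 24.8 CPM). At ath-b10r1-8540, +Fe replicate 4 had 23.3 CPM (6.73 to 8.99 CPM). In −Fe, replicate 3 had 2.11 CPM at ath-b10r1-17327 (0.836 to 1.03 CPM), and replicate 4 was the lowest at ath-b10r1-9212, with 2.73 CPM (3.97 to 4.18 CPM).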

How the results depend on the processing

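Of 117 alternatives of tests of single values, 112 kept the direction and the side of the threshold, and of 52 alternatives of counts of loci, 42 stayed within 1.5 times the main count. For pericentromeric minus arm loci, the share of loci with a count was −7.89 points among loci without a gene. The log2 ratio of the median level was −0.89 among loci without a gene, −0.47 with at least 50 counts and 0.44 at 200 to 1000 nt (exact permutation p = 0.0234, past 0.05). Without the 10 highest loci of each set, pericentromeric relative to arm counts differed between −Fe and +Fe by 0.00199 on the log2 scale. The share of library counts and the number of loci with a count kept their direction under every alternative tried.

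In the tests of single loci the number called was 0 without each library in turn, and 3 with DESeq2. With the replicate number as a block it was 1. Same-numbered libraries correlated at 0.010, 0.004, 0.045 and 0.030 in their deviations from the group means. Libraries of unlike number correlated at −0.033 to 0.021. Values this small cannot decide whether the numbers pair the samples. At an unadjusted p under 0.05, the number higher was 94 with library totals, 150 with DESeq2, 36 with filterByExpr and 76 to 177 without each library. The number lower was 45 with the block, 165 with library totals, 54 with filterByExpr, 148 with DESeq2 and 48 to 116 without each library.

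Among 472 alternatives of 30 named loci, 25 turned the sign of a log2 fold change that was not called, and DESeq2 called ath-b10r1-3616 and ath-b10r1-9212. With library totals ath-b10r1-9032 was at −0.074, ath-b10r1-17457 at −0.027, ath-b10r1-4715 at −0.029, ath-b10r1-12394 at −0.040, ath-b10r1-9225 at −0.18, ath-b10r1-9033 at −0.20 and ath-b10r1-17776 at −0.046. With the block ath-b10r1-9620 was at 0.41, ath-b10r1-1181 at 2.50 and ath-b10r1-12164 at 1.62. Without +Fe replicates 2 and 4, ath-b10r1-796 was at −0.00445, ath-b10r1-17155 at 0.63, ath-b10r1-8838 at 2.52 and ath-b10r1-12164 at 0.98. Without each library in turn, ath-b10r1-9032 ran from −0.032 to 0.28, ath-b10r1-17457 from −0.029 to 0.39, ath-b10r1-3885 from −0.20 to 0.047, ath-b10r1-9225 from −0.011 to 0.14, ath-b10r1-9033 from −0.092 to 0.29, ath-b10r1-9620 from −2.61 to 0.48, ath-b10r1-8838 from −2.44 to 2.70 and ath-b10r1-12164 from −2.03 to 1.53. The cause of these changes was not tested.

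The common dispersion over the 8 libraries was 1.11, and the smallest p of the exact tests between conditions is 0.0286.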
